A study of Mus musculus with 12 samples.

Results

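The 10 genes described here mark blood stem cells and multipotent progenitors, and they were picked by symbol from the 23420 genes of a deposited expression table. That choice was made with earlier results of these data known. The 10 are the surface genes Cd34 and Cd48, the endothelial-shared genes Egfl7 and Eltd1, and the transcription factor genes Hlf, Lmo2, Tal1, Lyl1, Gata2 and Mecom. All 10 symbols were found. The table covers 12 libraries of lineage-negative c-Kit+ mouse fetal liver cells, 3 in each of 4 groups that differ in genotype (KO or wild type) and in surface PIR, the paired immunoglobulin-like receptor. The groups are PIR+ KO, PIR+ wild type, PIR- KO and PIR- wild type. Each library was made from 100 cells sorted by flow cytometry, with ERCC spike-in RNA added to every tube. The labels name no KO target, strain or Cre line, so no targeted gene could be checked. Nor do they tie replicates to different embryos, and the p-values below reflect variation among these libraries, which may be technical.

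The libraries had summed values of 216841 to 284648 in PIR+ KO, 203135 to 253582 in PIR+ wild type, 169949 to 222700 in PIR- KO and 155374 to 187525 in PIR- wild type. The most common value above 0 was 0.5 to 0.8, depending on the library, and values of a few units lie close to it. Pira2, a PIR gene, was 9.3 to 35.7 in the 6 PIR+ libraries and listed at 0 in the 6 PIR- libraries, which follows the titles used for grouping. Kit was 18.6 to 56.3 and Il7r 9.7 to 24.4 over the 12 libraries. In 6 libraries the markers field of the labels gives the PIR sign opposite to the title. The labelled embryonic day goes with that field, E12.5 where it gives PIR+ and E14.5 where it gives PIR-. The day is therefore in doubt for these 6 libraries. Globin message stood out in 5 of these 6, with Hba-a1 at 359.6 to 604.1, against 8.2 to 62.6 in the other 7 libraries. They are 1 PIR+ KO, 1 PIR+ wild-type, 1 PIR- KO and 2 PIR- wild-type libraries. The markers field gives IL7Ra+ for every library, while the series title calls the PIR- cells IL7R-.

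Blood stem cells arise from endothelium in the embryo, and the fetal liver is where they expand. Several genes are shared between the youngest blood cells and the vessel wall. The transcription factors TAL1 and LYL1 are related basic helix-loop-helix proteins that pair with E proteins and bind E-box sites, while LMO2 bridges them through LDB1 to GATA factors. As progenitors enter the B lineage, some of these genes are turned down, and EBF1 and PAX5 take over.

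Values are normalized molecule counts as the authors deposited them, given in the order of replicates 1, 2 and 3 or as mean ± SD (n = 3). Fold changes are log2 of the first over the second group on the log2(value + 1) scale, with the standard error of limma's fit. Adjusted p-values are Benjamini-Hochberg values over the 4542 genes that reached 10 in at least 3 libraries, and calls are made under 0.05. Of the 10 genes, 7 passed that filter, and Tal1, Gata2 and Mecom did not. Hlf, Lmo2 and Eltd1 passed through their PIR+ libraries alone, so in PIR+ against PIR- the filter helped to set their direction, and the same holds between genotypes for Hlf, which reached 10 in the 3 PIR+ KO libraries alone. Cd48 reached 10 in the 6 KO libraries and in 1 wild-type library, so it too passed through the KO groups.

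**Figure D1:**
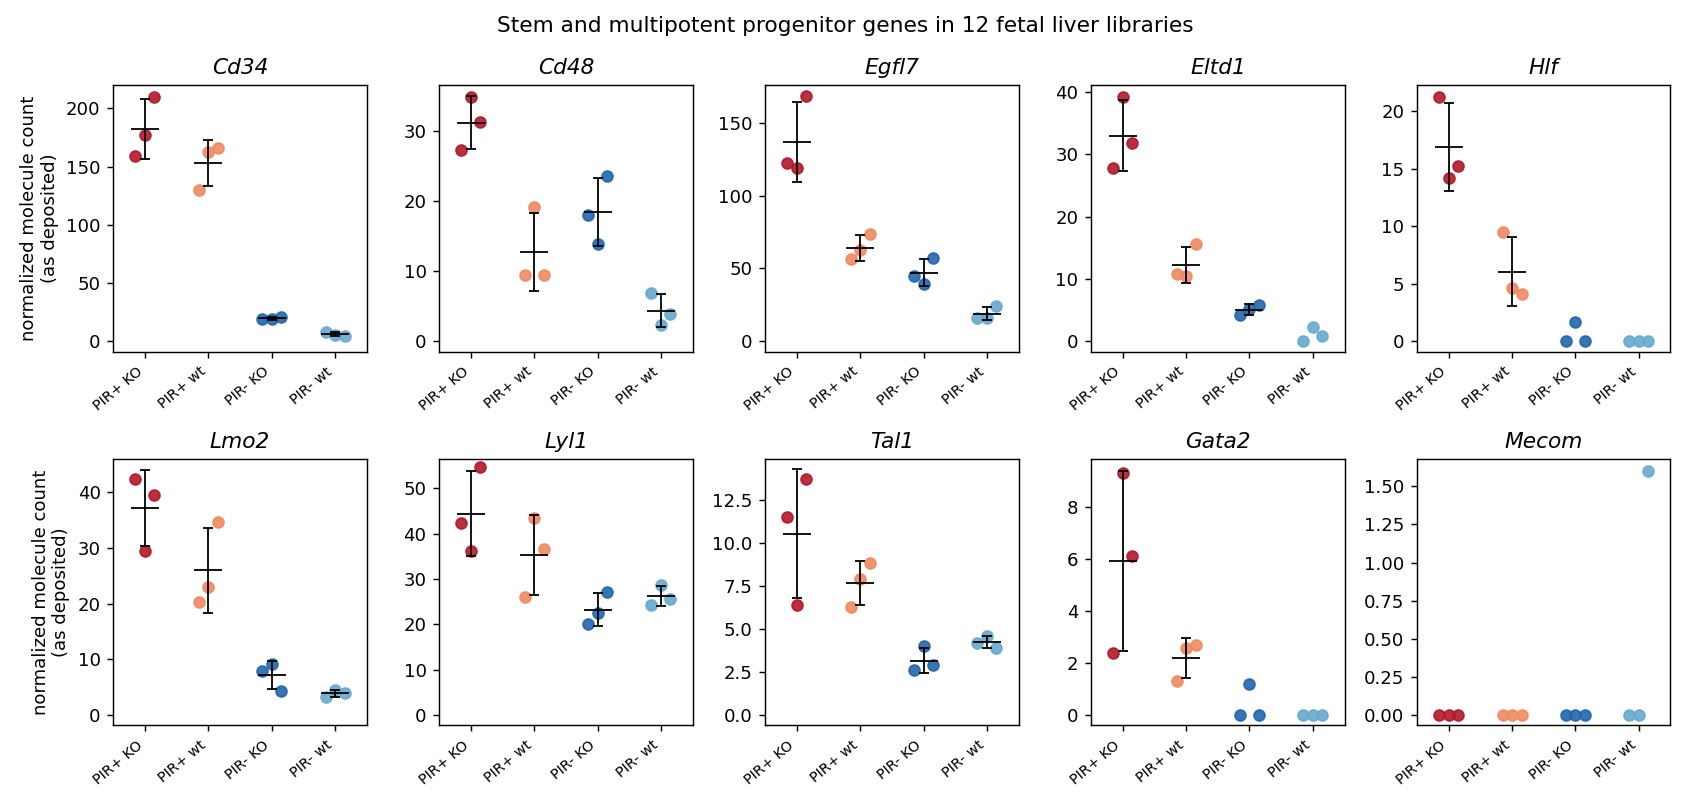
Normalized molecule count (vertical axis, as deposited, a separate linear scale for each gene) of the 10 genes in each library. Points are single libraries, bars are the mean ± SD of 3 libraries and are left out where a library is at 0. The PIR+ KO group has the highest mean for every gene but Mecom, which was above 0 in 1 library.

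Cd34 encodes a sialomucin of the progenitor surface and lies on chromosome 1, 194938819 to 194961279 (GRCm38, plus strand). It was 159.3, 177.3 and 209.9 in PIR+ KO, 130.1, 162.4 and 166.1 in PIR+ wild type, 19.1, 19.0 and 21.3 in the PIR- KO group, and 8.0, 5.4 and 4.7 in PIR- wild type. The PIR+ libraries of both genotypes stand far above the PIR- libraries, and the PIR- KO libraries lie above all PIR- wild-type ones. Within KO, PIR+ over PIR- gave a log2 fold change of 3.13 ± 0.21 (limma adjusted p = 2.36e-24), and in wild type it was 4.47 ± 0.21. In PIR- cells KO over wild type was 1.59 ± 0.21 (adjusted p = 6.1e-08), a ratio of means of 3.28. In PIR+ cells it was 0.25 ± 0.21 (adjusted p = 0.932), with overlapping libraries. The difference between these KO effects, PIR+ minus PIR-, was -1.34 ± 0.30 (adjusted p = 0.00776), and the same test called 26 of 4542 genes (0.572%). That call was lost without PIR+ wild-type replicate 2 (adjusted p = 0.0573) and without PIR+ KO replicate 1 (adjusted p = 0.06), while the PIR- KO effect kept its call in all 22 alternatives. Without the 5 globin-rich libraries the difference was -0.82 (adjusted p = 0.998), and in the 6 libraries with matching labels it was -0.70 (adjusted p = 1).

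Cd48 encodes a SLAM-family receptor that is low on stem cells and appears on multipotent and later progenitors. The gene lies on chromosome 1, 171682009 to 171705258. Its values were 27.3, 34.8 and 31.2 in PIR+ KO, 9.5, 19.1 and 9.5 in PIR+ wild type, 18.0, 13.8 and 23.5 in the PIR- KO group, and 6.9, 2.3 and 3.9 in PIR- wild type. KO libraries were above wild-type libraries in each subset with no overlap. Of the 10 genes, Cd48 was the one in which the PIR- KO mean was above the PIR+ wild-type mean (18.4 ± 4.86 against 12.7 ± 5.54), and these groups overlap. The fold change of KO over wild type was 1.29 ± 0.30 in PIR+ (limma adjusted p = 0.00602) and 1.92 ± 0.30 in PIR- cells (adjusted p = 3.81e-06). PIR+ over PIR- was 0.75 ± 0.30 in KO (adjusted p = 0.0528) and 1.37 ± 0.30 in wild type (adjusted p = 0.000129). In PIR+ cells the KO call was lost after median-of-ratios scaling (1.18, adjusted p = 0.0575). It was also lost without PIR+ wild-type replicate 1 or 3 (adjusted p = 0.108 and 0.0933) and without PIR+ KO replicate 2 (0.0744). In KO, PIR+ over PIR- passed without PIR- KO replicate 3 (0.93, adjusted p = 0.028) and without PIR- wild-type replicate 1, 2 or 3, which enter through the shared spread (adjusted p = 0.0431, 0.034 and 0.0342). In wild type it fell to 0.88 (adjusted p = 0.131) without the 5 globin-rich libraries.

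The SLAM-family genes and partners of Cd48 gave little to set beside it. None of the 11 listed, which include Cd244 and Cd2, encoding binding partners of CD48, reached the filter. Their summed values were 8.7 to 12.2 in PIR+ KO, 8.2 to 12.3 in PIR+ wild type, 16.8 to 24.3 in PIR- KO and 12.8 to 19.3 in PIR- wild type. Slamf1, whose product CD150 is used with CD48 to sort stem cells, was at most 0.8 in any library.

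Egfl7 encodes a secreted protein of endothelium and early blood progenitors and lies on chromosome 2, 26580014 to 26593120 (plus strand). It was 122.4, 119.0 and 168.1 in PIR+ KO, 56.5, 62.5 and 73.9 in PIR+ wild type, 45.0, 39.2 and 57.3 in the PIR- KO group, and 16.4, 16.3 and 24.1 in PIR- wild type. Each KO group lies above the wild-type group of its subset, and the PIR- KO libraries come up to the lowest PIR+ wild-type library. KO over wild type was 1.06 ± 0.21 in PIR+ (limma adjusted p = 0.000482) and 1.28 ± 0.21 in PIR- cells (adjusted p = 9.65e-06). PIR+ over PIR- was 1.51 ± 0.21 in KO and 1.73 ± 0.21 in wild type. Its right end overlaps Agpat2, on the other strand, which was at most 10.2 in any library.

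The microRNA gene Mir126a lies inside Egfl7, where its hairpin (26591357 to 26591429) overlaps no exon of a coding Egfl7 transcript. MicroRNA levels were not analysed here. The mature strand is shown because the change in Egfl7 concerns the transcript that hosts it, with the seed, bases 2 to 8, in capitals (RefSeq, GRCm38.p6).
mmu-miR-126a-3p: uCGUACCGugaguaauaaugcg

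Eltd1, now named Adgrl4, encodes an adhesion G protein-coupled receptor of endothelium and lies on chromosome 3, 151437887 to 151545086. It was 27.9, 39.2 and 31.9 in PIR+ KO, 10.8, 10.5 and 15.6 in PIR+ wild type, 4.2, 5.2 and 5.9 in the PIR- KO group, and 0.0, 2.3 and 0.8 in PIR- wild type. The 4 groups do not overlap with each other. The KO effect was 1.36 ± 0.36 in PIR+ (limma adjusted p = 0.0332) and 1.74 ± 0.36 in PIR- cells (adjusted p = 0.000926). PIR+ over PIR- was 2.47 ± 0.36 in KO and 2.86 ± 0.36 in wild type. In PIR+ cells the KO call was lost after median-of-ratios scaling (1.25, adjusted p = 0.108) and with a constant of 0.1 (adjusted p = 0.619), and it was kept in 12 of 22 alternatives. It was also lost without 5 of the 6 PIR+ libraries in turn. The adjusted p was 0.0731, 0.255 and 0.138 without PIR+ KO replicate 1, 2 or 3, and 0.211 and 0.203 without PIR+ wild-type replicate 1 or 2. In PIR- cells the size of the change hung on the added constant, with 3.10 for a constant of 0.1 and 0.76 for 5 (adjusted p = 0.0839).

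Other endothelial genes were low. Of 20 endothelial markers 3 reached the filter, and 2 of those were called in a comparison. The summed value of the 20 was 38.8 to 57.9 in PIR+ KO, 25.0 to 31.4 in PIR+ wild type, 18.5 to 36.7 in PIR- KO and 20.9 to 67.7 in PIR- wild type. Pecam1, which reached the filter, was 4.6 to 12.4 over the 12 libraries and was called in no comparison. Among the markers that missed the filter, several were at or near 0 in PIR+ libraries. Cdh5 (VE-cadherin) was 1.8, 1.0 and 0.0 in PIR+ KO and 0.0, 0.7 and 0.0 in PIR+ wild type, Kdr was listed at 0 in all 6 PIR+ libraries, and Tek was above 0 in 1 of them. Eng, endoglin, was higher in PIR+ than PIR- cells, by 1.11 ± 0.33 in KO (limma adjusted p = 0.0068) and 1.27 ± 0.33 in wild type (adjusted p = 0.00118), and after median-of-ratios scaling only in wild type. Mmrn1, multimerin 1, was 3.6, 6.4 and 11.4 in PIR+ KO and 0.0, 0.0 and 1.4 in PIR+ wild type (2.49 ± 0.44, adjusted p = 6.65e-05). It averaged 8.2 ± 3.73 in PIR- KO and 8 ± 1.82 in PIR- wild type. Its subset difference was opposite to that of Eng in wild type, with PIR+ over PIR- at -2.73 ± 0.44 (limma adjusted p = 2.62e-07), and it was -0.22 ± 0.44 in KO, not called. The highest sum belongs to PIR- wild-type replicate 3, which had 7.0 for Cdh5, 10.1 for Lyve1 and 5.4 for Stab2, genes of liver sinusoids. That library also had the highest Egfl7 of its group (24.1). Megakaryocyte markers summed to 12.6 to 19.8 in PIR+ KO, 6.1 to 15.8 in PIR+ wild type, 1.1 to 2.9 in PIR- KO and 1.6 to 4.8 in PIR- wild type, with Gp1ba and Gp6 at 0 throughout. The part of either cell type in the Egfl7 and Eltd1 values was not tested.

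**Figure D2:**
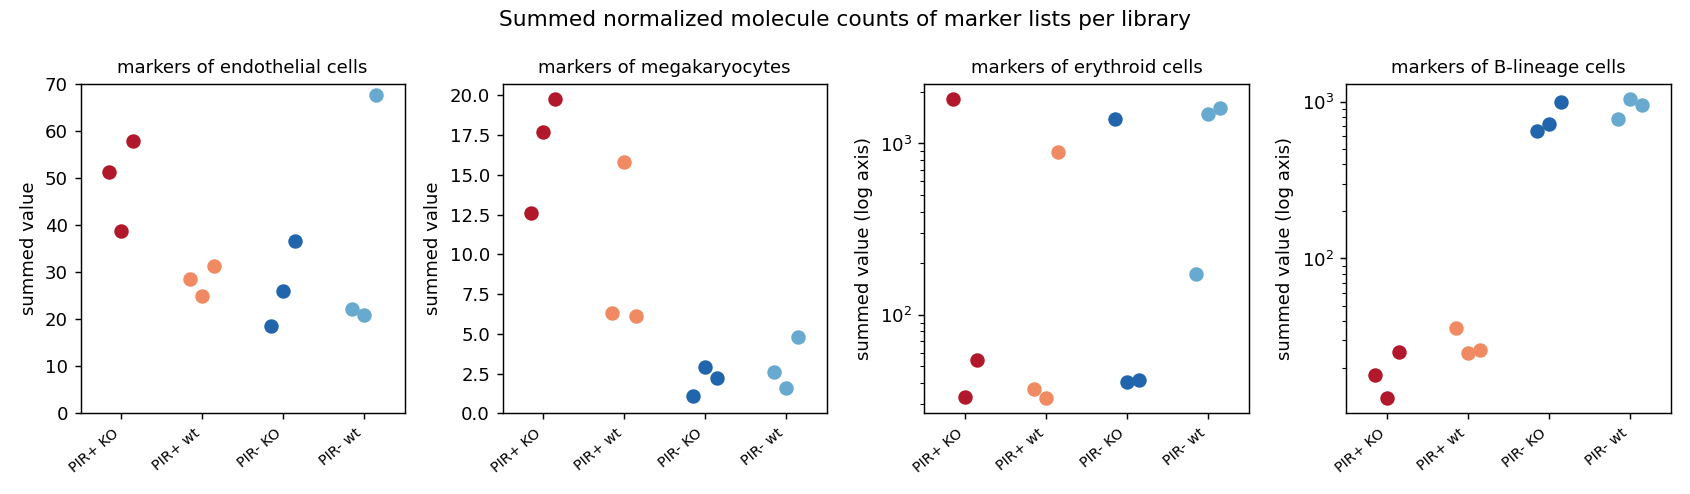
Summed normalized molecule counts (vertical axes, linear for endothelial and megakaryocyte markers, log for erythroid and B-lineage markers) of 4 marker lists, 1 point per library in each group. The PIR+ KO libraries sit at 38.8 to 57.9 for endothelial markers, against 25.0 to 31.4 in PIR+ wild type, and 1 PIR- wild-type library stands apart at 67.7.

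The promoter windows of the 4 genes called higher in PIR- KO cells, Cd34, Cd48, Egfl7 and Eltd1, are shown because all 4 passed the test in that comparison. Each window runs from 250 bases before to 50 after a RefSeq start on the plus strand (GRCm38.p6). They are chr1:194938571-194938870 for Cd34, chr1:171681742-171682041 for Cd48, chr2:26580833-26581132 for the first of 3 Egfl7 starts and chr3:151437632-151437931 for Eltd1. Capitals mark ETS-like cores, CCGGAA or CAGGAA on either strand, and GATA motifs, AGATAA or TGATAA on either strand, of which these 4 windows hold none, while the second Egfl7 window, not printed, holds 1.
Cd34: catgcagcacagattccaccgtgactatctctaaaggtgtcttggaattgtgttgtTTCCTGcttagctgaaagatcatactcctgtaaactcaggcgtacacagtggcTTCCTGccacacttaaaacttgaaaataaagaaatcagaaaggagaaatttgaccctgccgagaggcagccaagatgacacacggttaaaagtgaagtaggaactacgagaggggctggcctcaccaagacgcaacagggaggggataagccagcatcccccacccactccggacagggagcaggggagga
Cd48: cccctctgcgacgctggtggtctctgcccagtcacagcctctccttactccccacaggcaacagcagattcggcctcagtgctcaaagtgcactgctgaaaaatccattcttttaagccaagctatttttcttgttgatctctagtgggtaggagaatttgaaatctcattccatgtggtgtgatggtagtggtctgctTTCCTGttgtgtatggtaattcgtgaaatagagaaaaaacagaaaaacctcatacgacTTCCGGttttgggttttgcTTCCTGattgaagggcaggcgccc
Egfl7: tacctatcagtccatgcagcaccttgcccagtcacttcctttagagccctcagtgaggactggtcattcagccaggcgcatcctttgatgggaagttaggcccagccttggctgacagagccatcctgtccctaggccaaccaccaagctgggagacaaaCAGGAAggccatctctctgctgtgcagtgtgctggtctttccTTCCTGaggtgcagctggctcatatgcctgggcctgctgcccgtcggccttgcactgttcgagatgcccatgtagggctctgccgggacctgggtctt
Eltd1: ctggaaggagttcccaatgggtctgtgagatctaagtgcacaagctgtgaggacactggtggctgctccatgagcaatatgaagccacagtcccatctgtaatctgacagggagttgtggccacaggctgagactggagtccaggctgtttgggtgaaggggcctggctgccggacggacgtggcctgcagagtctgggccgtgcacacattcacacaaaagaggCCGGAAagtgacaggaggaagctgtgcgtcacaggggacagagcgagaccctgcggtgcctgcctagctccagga

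The 4 printed windows hold 2, 3, 2 and 1 ETS-like cores. RefSeq gave 14 windows for 9 of the 10 genes, with no entry for Lmo2. An ETS-like core was present in 7 of the 14 windows (50%) and in 41.4% of all 32851 promoter windows. A GATA motif was present in 21.4% of the 14 and 18.6% of all, an E-box CANNTG in 64.3% and 72.3%, and its subset CAGCTG in 14.3% and 16.3%. CAGATG, another subset of CANNTG, was in 21.4% of the 14 and 17.2% of all, and the runt motif TGTGGT was in 7.14% and 16.8%. All shares count both strands, and a match of letters is not a bound site.

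Hlf encodes a PAR bZIP transcription factor of stem cells and lies on chromosome 11, 90336536 to 90390895 (minus strand). It was 21.2, 14.2 and 15.2 in PIR+ KO and 9.5, 4.6 and 4.1 in PIR+ wild type. Of the PIR- libraries, KO replicate 2 had 1.7, and the other 5 were listed at 0. PIR+ KO libraries lie above all PIR+ wild-type libraries, a ratio of means of 2.78, and the fold change was 1.40 ± 0.52 (limma adjusted p = 0.349). The test made no call there except with an added constant of 5 (adjusted p = 0.00591), in a range of 0.00591 to 0.958 over 22 alternatives. Within KO, PIR+ over PIR- was 3.66 ± 0.52 (adjusted p = 9.86e-09), and the size depends on the added constant (5.99 for 0.1 and 1.97 for 5). The relatives of Hlf did not reach the filter. Nfil3, a bZIP repressor, was 3.0, 1.0 and 0.8 in PIR+ KO and 8.9, 18.4 and 12.9 in PIR+ wild type, a difference opposite in direction to that of Hlf. Tef was 3.0, 6.9 and 9.1 in PIR+ KO and 4.4, 3.9 and 5.4 in PIR+ wild type.

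Lmo2 lies on chromosome 2, 103957986 to 103981878. It was 42.4, 29.4 and 39.5 in PIR+ KO, 20.3, 23.0 and 34.6 in PIR+ wild type, 7.9, 9.2 and 4.4 in the PIR- KO group, and 3.2, 4.6 and 3.9 in PIR- wild type. The subsets are apart in both genotypes and the genotypes overlap in both subsets. PIR+ over PIR- was 2.26 ± 0.29 in KO (limma adjusted p = 4.78e-10) and 2.43 ± 0.29 in wild type (adjusted p = 1.75e-11). The genotype difference, KO over wild type, was 0.52 ± 0.29 in PIR+ (adjusted p = 0.804) and 0.70 ± 0.29 in PIR- cells (adjusted p = 0.264).

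Lyl1 lies on chromosome 8, 84701457 to 84704715, within the span of Nfix on the other strand, and Nfix was at most 3.0. It was 42.4, 36.2 and 54.8 in PIR+ KO, 26.0, 43.4 and 36.6 in PIR+ wild type, 20.1, 22.5 and 27.2 in the PIR- KO group, and 24.4, 28.7 and 25.6 in PIR- wild type. Unlike Lmo2, it was present at a similar level in the PIR- groups and in part of the PIR+ wild-type libraries. PIR+ over PIR- was 0.90 ± 0.23 in KO (limma adjusted p = 0.0018) and 0.39 ± 0.23 in wild type (adjusted p = 0.153), and the wild-type value turned to -0.12 after median-of-ratios scaling. Between genotypes the value was 0.33 ± 0.23 in PIR+ and -0.17 ± 0.23 in PIR- cells, neither called.

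Tal1, the close relative of Lyl1, lies on chromosome 4, 115056426 to 115071755. It was 11.5, 6.4 and 13.7 in PIR+ KO, 6.3, 7.9 and 8.8 in PIR+ wild type, 2.6, 4.0 and 2.9 in the PIR- KO group, and 4.2, 4.6 and 3.9 in PIR- wild type. PIR+ libraries were above PIR- libraries in each genotype. Fitted with no filter, over the 14177 genes above 0 in at least 1 library, PIR+ over PIR- was 1.43 ± 0.34 in KO (limma adjusted p = 0.00888) and 0.72 ± 0.34 in wild type (adjusted p = 0.156). Between genotypes it was 0.36 ± 0.34 in PIR+ and -0.34 ± 0.34 in PIR- cells, neither called. Like Lyl1, Tal1 had a lower mean in PIR- KO (3.17 ± 0.74) than in PIR- wild type (4.23 ± 0.35).

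Gata2, a zinc finger factor needed by stem cells and also used by mast cells and megakaryocytes, lies on chromosome 6, 88193891 to 88207032. It was 2.4, 9.3 and 6.1 in PIR+ KO and 1.3, 2.6 and 2.7 in PIR+ wild type. PIR- KO replicate 2 had 1.2, and the other 5 PIR- libraries were listed at 0. With no filter, PIR+ over PIR- in KO was 2.27 ± 0.46 (limma adjusted p = 0.00267), and KO over wild type in PIR+ cells was 1.01 ± 0.46 (adjusted p = 0.635), with overlapping libraries. Of 8 mast cell and basophil markers 1, Cpa3, was above 0 at all, at 2.4, 0.5 and 9.1 in PIR+ KO and 4.4, 1.3 and 1.4 in PIR+ wild type.

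Mecom encodes a zinc finger factor of long-term stem cells, and lies on chromosome 3, 29951296 to 30548008. It was listed at 0 in 11 libraries and was 1.6 in PIR- wild-type replicate 3, the library with the highest endothelial sum. Other genes of long-term stem cells were as low. Procr was 0.5 in PIR+ KO replicate 2 and 0 elsewhere, and Myct1 was at most 0.8.

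**Figure D3:**
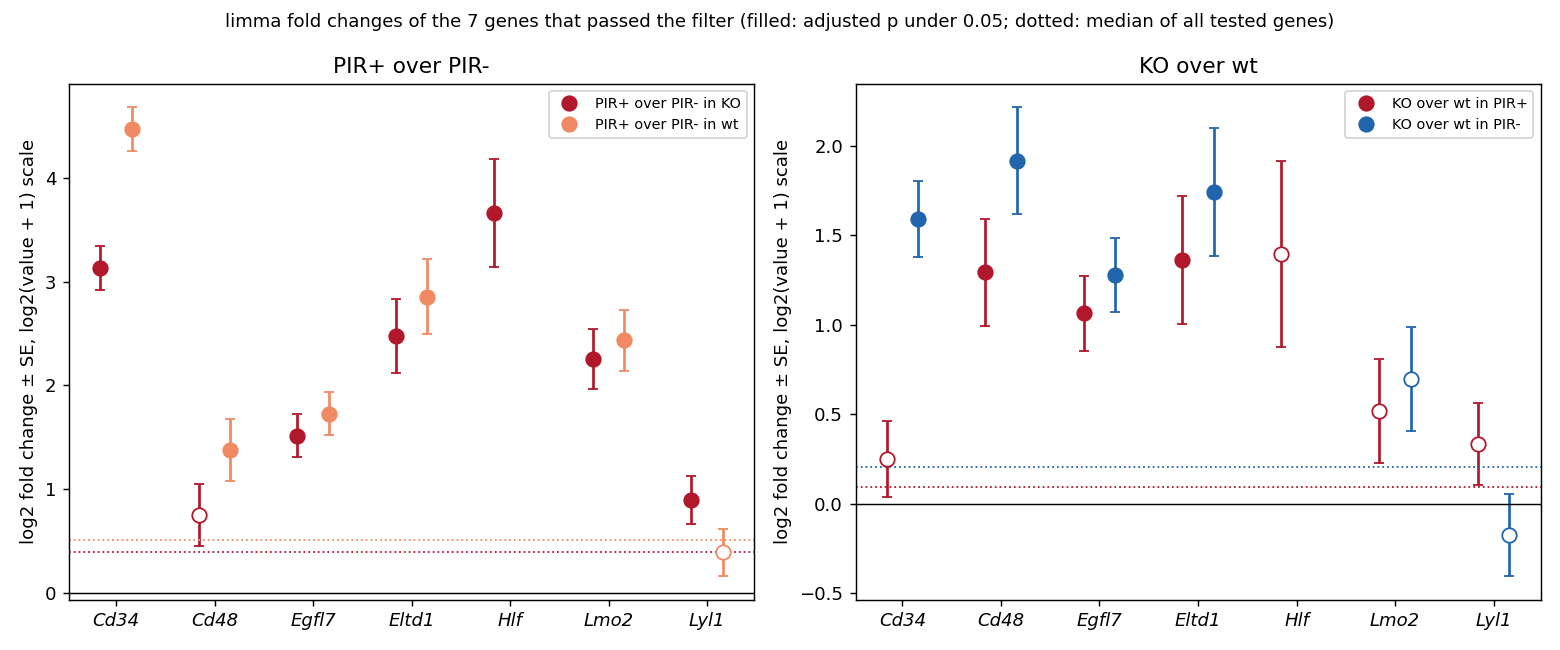
Log2 fold changes ± SE (vertical axes, limma on log2(value + 1)) of the 7 genes that passed the filter, for PIR+ over PIR- (left) and KO over wild type (right). Filled points have an adjusted p under 0.05, dotted lines are the median of all 4542 tested genes, and Hlf is left out where the second group is at 0. Cd48, Egfl7 and Eltd1 are filled in both KO comparisons, at 1.06 to 1.92.

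Set side by side, most of the 10 genes were higher in PIR+ than in PIR- cells, and fewer were called between genotypes. With no filter, 8 of the 10 were called higher in PIR+ than PIR- cells in KO and 7 in wild type, and none lower. Of the 14177 genes, 8.7% were called in either direction in KO and 16.1% in wild type. The median fold change of the 10 was 1.88 in KO, against 0.26 over all genes, and none is given for wild type, where Hlf and Gata2 were listed at 0 in PIR- cells. Among the 7 that passed the filter, 6 were called higher in each genotype, where 22.5% of the tested genes were called higher in KO and 40.6% in wild type. Those 6 leave out Cd48 in KO and Lyl1 in wild type. Every PIR+ library was above every PIR- library for 7 of these 7 genes in KO and 6 in wild type, and for 35.7% and 47.6% of the tested genes. The median tested gene was itself 0.39 higher in PIR+ cells in KO and 0.51 in wild type. Median-of-ratios scaling, which brings that median to 0.00 and 0.01, also called 6 of the 7 higher in each genotype, where 8.08% and 11.2% of genes were called higher. Hlf, Lmo2 and Eltd1 passed the filter through their PIR+ libraries alone, which fixes part of the counts of the 7. Nothing is read from those counts. In a bulk library, a gene that is on in fewer cells and a gene with less RNA per cell cannot be told apart. B-lineage markers had the opposite direction, with 7 of the 7 tested called lower in PIR+ cells in each genotype. Of all tested genes 2.97% were called lower in KO and 3.72% in wild type. All of the 7 but Cd79b passed the filter through their PIR- libraries alone, which fixes part of that count. The markers summed to 12.8 to 25.2 in PIR+ KO and 25.0 to 36.1 in PIR+ wild type. In PIR- cells the sums were 649.3 to 994.0 in KO and 774.4 to 1045.8 in wild type.

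Between genotypes, 3 of the 10 genes were called higher in KO in PIR+ cells, namely Cd48, Egfl7 and Eltd1, and 4 in PIR- cells, the same 3 and Cd34. None was called lower. KO libraries lay above all wild-type libraries for 4 of the 7 filtered genes in PIR+ cells (Cd48, Egfl7, Eltd1 and Hlf) and for 4 in PIR- cells, and for 8.04% and 14.4% of tested genes. Cd48 and Hlf passed the filter through KO libraries, which fixes part of these counts, so nothing is read from them. Over all tested genes 20 of 4542 (0.44%) were called higher in KO in PIR+ cells and 49 (1.08%) in PIR- cells. These comparisons share no library, but they share the estimate of each gene's spread. Only 5 genes (0.11%) were called higher in both, and Cd48, Egfl7 and Eltd1 are 3 of them. The members were chosen with earlier results of these data known, so nothing is read from this overlap. Erdr1, another of the 5, was named after its values were seen. It was 283 ± 66.6 in PIR+ KO, 158 ± 35.2 in PIR+ wild type, 133 ± 12.4 in PIR- KO and 63.9 ± 11.3 in PIR- wild type. The difference between the KO effects of the subsets was called for Cd34 alone among the 7. For Cd48 it was -0.62 ± 0.42 (limma adjusted p = 0.931), for Egfl7 -0.21 ± 0.29 and for Eltd1 -0.38 ± 0.51 (both adjusted p = 0.982).

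**Figure D4:**
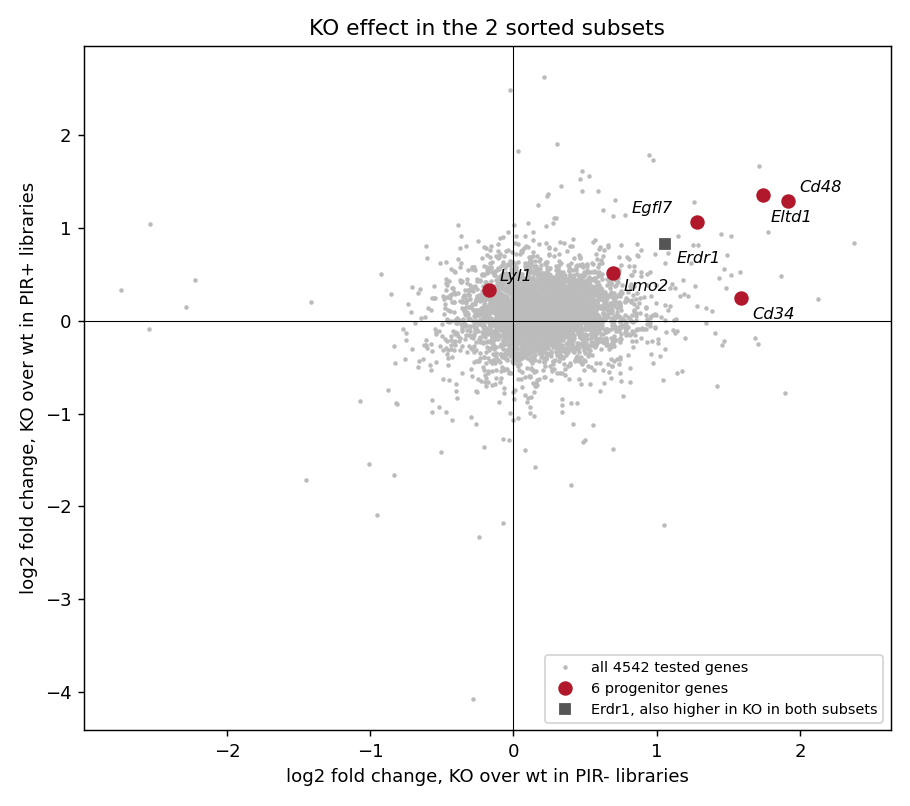
Log2 fold change of KO over wild type in PIR+ libraries (vertical axis) against that in PIR- libraries (horizontal axis) for 4542 tested genes (grey), with 6 progenitor genes in red. Hlf is left out because PIR- wild type is at 0. Cd48, Egfl7, Eltd1 and Erdr1 (square), called higher in both, lie at the upper right, and Cd34 lies to the right near the horizontal axis at 0.25.

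On the median-of-ratios scale the calls in PIR- cells stayed at 4 of the 7, the same genes, and those in PIR+ cells fell to 1, Egfl7 (0.96 ± 0.13, limma adjusted p = 7.59e-05), where 1.01% and 0.352% of genes were called higher. With no filter, the calls in PIR- cells were again these 4 and the call in PIR+ cells was again Egfl7. There 0.198% and 0.127% of genes were called higher, and 0.219% and 0.367% in either direction. Within libraries of 1 labelled embryonic day, the 3 shared genes were higher in KO on each day and in each subset. In PIR+ cells Egfl7 was 1.48 higher at E12.5 and 0.70 at E14.5 on the log2 scale, Cd48 1.15 and 1.60, and Eltd1 1.50 and 1.04. In PIR- cells Cd34 was 1.73 higher at E12.5 and 1.23 at E14.5, Cd48 2.24 and 1.27, Egfl7 1.14 and 1.48, and Eltd1 1.09 and 2.71. A day holds 1 or 2 libraries of a group, so these are values with no test. The labelled day follows the markers field, so it is in doubt where that field is opposite to the title. Where field and title match, all PIR+ libraries are E12.5 and all PIR- libraries E14.5, so subset and day cannot be told apart there. Erythroid markers summed to 40.2 to 1383.5 in PIR- KO and 172.4 to 1614.5 in PIR- wild type. Leaving out the 5 globin-rich libraries keeps a single PIR- wild-type library, whose spread is then taken from the other groups. There Cd34 (1.23, adjusted p = 0.0356), Egfl7 (1.48, adjusted p = 0.00333) and Eltd1 (2.71, adjusted p = 0.000142) were still called in PIR- cells and Cd48 was not (1.27, adjusted p = 0.124). In PIR+ cells Egfl7 and Eltd1 were called and Cd48 was not (adjusted p = 0.0533).

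Part of a wider list of stem and progenitor genes, chosen with earlier results of these data known, was also higher in PIR+ cells. Of 30 further stem and multipotent progenitor genes 11 reached the filter. In KO 6 were higher and none lower in PIR+ cells, and in wild type 8 were higher and none lower (median 0.89 and 1.42). Over all tested genes 22.5% were called higher in KO and 40.6% in wild type, with medians of 0.39 and 0.51. After median-of-ratios scaling the counts were 5 higher in KO, and 7 higher and 1 lower in wild type. On that scale 8.08% and 11.2% of all genes were called higher. Mycn, Cd27, Meis1 and Etv6 passed the filter through their PIR+ libraries alone, which fixes part of these counts and medians. Nothing is read from them. Mycn, a growth-promoting factor, was higher by 3.65 ± 0.35 in KO and 3.90 ± 0.35 in wild type, and Cd27, a receptor of the TNF family, by 1.99 ± 0.31 and 3.46 ± 0.31. Meis1, a homeobox partner of Hox factors, was higher by 2.06 ± 0.39 in KO (limma adjusted p = 1.23e-05) and 1.87 ± 0.39 in wild type (adjusted p = 5.29e-05). Flt3, a receptor of multipotent and lymphoid progenitors, was higher by 1.74 ± 0.25 in KO and 3.45 ± 0.25 in wild type. Between genotypes none of the 11 was called in PIR+ cells. In PIR- cells Flt3 rose to 15.9, 20.2 and 16.9 in KO, against 9.5, 3.1 and 6.2 in wild type (1.46 ± 0.25, adjusted p = 2.04e-05), as Cd34 did. Zfp36l2, an RNA-decay factor, rose by 0.91 ± 0.20 and Gpr56, an adhesion receptor of progenitors, fell by 0.84 (SE 0.23, adjusted p = 0.0409). Neutrophil markers in PIR- cells summed to 16.1 to 41.5 in KO and 4.6 to 19.5 in wild type. Mpo and Prtn3 made up most of these sums, while Ctsg, Camp, Ngp and S100a9 were listed at 0 in every library. In PIR- cells Mpo was higher in KO by 1.71 ± 0.27 (limma adjusted p = 3.81e-06), and Prtn3 was not called (1.17 ± 0.36, adjusted p = 0.0899). The part of neutrophils in these values was not tested.

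Of 19 partners of the TAL1, LYL1, LMO2 and GATA2 complexes 13 reached the filter. In KO 3 were higher and 1 lower in PIR+ cells, in wild type 6 were higher and 2 lower, and none was called between genotypes in either subset. Of all tested genes 22.5% were called higher in KO and 40.6% in wild type, so the counts of higher partners lie near the background. Lower calls made up 2.97% of the tested genes in KO and 3.72% in wild type. Median-of-ratios scaling gave 2 higher and 2 lower in KO and 3 higher and 3 lower in wild type. It evened the split over all tested genes too, to 8.08% higher and 7.6% lower in KO. In wild type these shares were 11.2% and 11.3%. Cbfa2t3, a corepressor of the complex, was higher by 1.30 ± 0.26 in KO and 1.68 ± 0.26 in wild type, and Lmo4, an LMO2 relative, by 1.31 ± 0.26 and 1.47 ± 0.26. Fli1, an ETS factor, was higher by 1.06 ± 0.25 in wild type and by 0.37 ± 0.25 in KO, where it was not called. Tcf3, which encodes the E protein partner E2A, was lower in PIR+ cells in both genotypes. Its fold change was -1.15 ± 0.21 in KO (limma adjusted p = 1.14e-05) and -1.04 ± 0.21 in wild type (adjusted p = 4.74e-05). Ldb1, the bridging protein, was called in no comparison. Gata1 was at most 3.6 in any library.

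As a description of pattern, the log2 values of the 7 filtered genes correlated with each other over the 12 libraries at r = 0.47 (Cd48 with Lyl1) to 0.96 (Cd34 with Lmo2). The 12 points share 4 groups, so they are not independent of the group means. The genes most like Cd34 over the 12 libraries were Dok2 and Sfpi1 (both r = 0.99). For Eltd1 they were Ptgs1 (r = 0.98) and Lasp1 (r = 0.96), for Hlf Eml4 (r = 0.98) and Dcun1d1 (r = 0.97), and for Lmo2 Ppp3ca (r = 0.99) and Atp13a1 (r = 0.98). Egfl7 was most like Eef1b2 and Erdr1 (both r = 0.98), Cd48 most like Sesn1 (r = 0.95) and Ubap2 (r = 0.94), and Lyl1 most like Pkm and Spcs1 (both r = 0.95). Dok2, an adaptor protein gene, was 58.5 ± 11.3 in PIR+ KO, 52.6 ± 5.31 in PIR+ wild type, 9.67 ± 0.70 in PIR- KO and 3.23 ± 0.61 in PIR- wild type, and like Cd34 its PIR- KO libraries lay above its PIR- wild-type libraries.

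The authors' deposited table gives p-values of their own DESeq2 tests for a pair of these comparisons. For KO against wild type in PIR+ cells the authors' deposited table has 1.12e-10 for Egfl7, 3.44e-05 for Eltd1, 0.000414 for Cd48 and 0.0037 for Hlf. The larger DESeq2 p-values in the authors' deposited table are 0.0756 for Gata2, 0.104 for Lmo2, 0.178 for Cd34, 0.338 for Lyl1 and 0.495 for Tal1. For PIR+ against PIR- in wild type it has 3.31e-33 for Cd34, 0.068 for Cd48 and 0.751 for Lyl1 in the authors' deposited table. Other DESeq2 p-values of that comparison in the authors' deposited table are 1.88e-06 for Egfl7, 8.23e-06 for Lmo2, 0.000116 for Eltd1, 0.000716 for Hlf and 0.621 for Tal1. Whether they were corrected for multiple testing is not stated there.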

How the data were processed

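The members and the gene lists were chosen with earlier results of these data known. Lineage-negative c-Kit+ cells were sorted and 100 per tube were lysed with spike-in RNA, and molecular-barcoded cDNA was made from an oligo-dT primer, per the labels' protocols. The deposited values are a signal, molecule counts normalized by the authors with spike-ins, per the labels, and written to 1 decimal. The authors' spike-in normalization can keep differences in RNA content between libraries. TopHat2, DESeq2 and mm10 are named in the submitters' processing notes, and the sources used here do not give versions, the counting tool, its strand setting or filters. The deposited p-value columns are DESeq2 results of the authors, per the file headers. Groups come from the titles. limma 3.58.1 (R 4.3.3) with a trended prior was fitted to log2(value + 1) over 4 group means for 4542 genes with at least 10 in at least 3 libraries. Its p-values were Benjamini-Hochberg adjusted per comparison, and it was checked on simulated data. The alternatives were median-of-ratios scaling, constants of 0.1 and 5, a filter of at least 5 in at least 3 libraries, no filter, no trend, a replicate block, embryonic day as a term, libraries with matching labels, leaving out each library, and, added after seeing the data, leaving out the 5 globin-rich libraries. All 10 members were named. From each list up to 3 called genes of largest fold change were named per comparison, and 2 genes of highest r per member. Other genes were named after their values were seen. Locations are from GENCODE M21 (GRCm38, the sequence of mm10) and sequences from RefSeq. A comparison of TAL1 and LYL1 proteins was planned and not made. The result for 1 gene is not reported here. Figures were drawn with matplotlib 3.10.9.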

Additional observations from a re-analysis of the deposited data

Results flagged for a closer look

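The KO effect on Cd34 differed between the subsets by a test of the difference itself. It was 0.25 ± 0.21 in PIR+ and 1.59 ± 0.21 in PIR- cells (log2 ± SE, 3 KO and 3 wild-type libraries each), and PIR+ minus PIR- was -1.34 ± 0.30 (limma adjusted p = 0.00776). All 3 PIR- KO libraries (19.1, 19.0 and 21.3) were above all 3 PIR- wild-type libraries (8.0, 5.4 and 4.7), and PIR+ KO libraries (159.3, 177.3 and 209.9) overlapped with PIR+ wild-type libraries (130.1, 162.4 and 166.1). The adjusted p ran from 0.00105 to 1 over 22 alternatives, 15 of which kept the call.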

How the results depend on the processing

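Among single values of the 7 filtered genes under an alternative, 722 kept direction and side of the threshold, 31 lost a call, 7 gained one and 10 changed sign, all 10 in values not called. Lyl1 turned to -0.12 (PIR+ over PIR- in wild type, scaled) and, for KO over wild type in PIR-, to 0.0193 in the 6 libraries with matching labels and without the 5 globin-rich ones. For the difference of KO effects, Egfl7 turned to 0.00839 and Lmo2 to 0.0196 with matching labels. With a constant of 5 Eltd1 turned to 0.38 and Lmo2 to 0.0246. Leaving out 1 library gave -0.81 to 0.0477 for Eltd1 and -0.45 to 0.0401 for Lmo2.

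Genes called for PIR+ over PIR- in wild type were 2015, 1024 after scaling, 1053 with matching labels, 700 without the globin-rich libraries and 1320 to 2083 without 1 library. In KO they were 1158, 712 after scaling, 576 without the globin-rich libraries and 662 to 1418 without 1 library. Scaling took the share of higher calls to 509 of 1024 in wild type, from 1846 of 2015, and to 367 of 712 in KO, from 1023 of 1158. For KO over wild type in PIR+ the 41 calls became 20 with no trend, 62 with the replicate block, 27 without the globin-rich libraries and 28 to 46 without 1 library. In PIR- the 59 became 31 with no filter, 37 with no trend, 209 with the replicate block, 105 with matching labels, 35 without the globin-rich libraries and 33 to 88 without 1 library. The 26 calls of the difference became 3 with no filter, 3 with no trend, 10 with matching labels, 6 without the globin-rich libraries and 15 to 33 without 1 library. The cause was not tested.

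Of the 7 genes, 3 were called for KO over wild type in PIR+, and 1 after scaling, with no filter and with matching labels, 0 with no trend, and 1 to 3 without 1 library. With no trend the limma adjusted p was 0.0607 for Egfl7, 0.0699 for Eltd1 and 0.0809 for Cd48 (unadjusted p = 0.000307, 0.000461 and 0.000583). Cd34 alone was called for the difference, and 0 of the 7 with a constant of 5, no filter, no trend, matching labels or without the globin-rich libraries, and 0 to 1 without 1 library. For KO over wild type in PIR- 4 were called whichever 1 library was left out. The replicate block moved 1 of these genes across the threshold, Cd48 for PIR+ over PIR- in KO (adjusted p = 0.0474). Deviations from group means of same-numbered libraries correlated at -0.106 to 0.162 over 18 pairs, 1 of them above 0.1, and 1 of 12 libraries was closest to its own number. A correlation over genes leaves out a shift common to all genes, so it cannot decide whether the numbers pair the libraries. Replicate 3 had the highest summed value in every group (284648 in PIR+ KO, 253582 in PIR+ wild type, 222700 in PIR- KO and 187525 in PIR- wild type). The most common value above 0 was 0.5 to 0.8, and the values of Gata2, Hlf in PIR- cells and Mecom lie near it, so differences there were not detectable at this depth unless large.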
